A study of Rattus norvegicus with 2 samples.

Results

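The microRNAs (miRNAs) of the imprinted Dlk1-Dio3 domain were followed in the small RNA of exosomes released by primary cardiomyocytes. A row of the deposited count table was a member when the number in its miRNA name was 1 of 47 numbers given to miRNAs of this domain, whichever arm it named. This rule found 70 member rows among the 635 rows of the table. They carried 41 of the 47 numbers and 44 hairpin names, and the table had no row for miR-453, miR-544, miR-654, miR-679, miR-758 or miR-3070. Of the 70 rows, 13 belonged to the Rtl1-antisense group (miR-127, miR-136, miR-337, miR-431, miR-433, miR-434, miR-540 and miR-665), and 57 were other members.

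The cardiomyocytes came from the hearts of Wistar rats of 1 to 2 days of age. They were enriched by differential adhesion, plated with 0.1 mM bromodeoxyuridine and kept without serum for 24 h. NC-Exo are the exosomes of cells left untreated for 48 h. HC-Exo are those of cells given angiotensin II (Ang II) at 1 μmol/L over the same time, and both were collected from the medium with a commercial isolation reagent. Ang II is a peptide hormone that drives cardiomyocyte hypertrophy. Each kind of exosome was sequenced as 1 library. No difference described here therefore has a replicate check, and the effect of Ang II and the spread between separate cultures cannot be told apart.

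The Dlk1-Dio3 domain is expressed according to the parent of origin. The protein-coding genes Dlk1, Rtl1 and Dio3 are read from the paternal chromosome, and a series of non-coding RNAs, among them Meg3 and the transcript antisense to Rtl1, from the maternal one. The miRNA hairpins of the domain are cut from these maternal RNAs. Several miRNAs of the Rtl1-antisense transcript, miR-127 among them, lie opposite the Rtl1 coding sequence and pair perfectly with its mRNA, while a long array from miR-379 to miR-410 lies further along. These miRNAs are known from the placenta, the brain and embryonic tissue, and the domain is more active in fetal and newborn than in adult muscle and heart.

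The table names mouse miRNAs, although the cells were from rats. Of the 70 rows, 64 were matched by name to a mature rat miRNA of RefSeq (assembly GRCr8), and the genes of all 64 lay between Dlk1 and Dio3 on chromosome 6. Of these, 62 were on the plus strand, the exceptions being the arms of miR-299b. The region held 59 rat miRNA genes, 6 of them within the span of Rtl1. Those of miR-431, miR-433, miR-127, miR-434 and miR-136 lay there, and those of miR-337, miR-540 and miR-665 lay just before it. The mature rat sequences of the 6 member rows with most reads are shown first, from 5′ to 3′, with the seed (bases 2 to 8, which largely set target choice) in capitals. Where rat and mouse sequences differ, the reads counted may have been fewer, and this was not tested.
miR-382-5p: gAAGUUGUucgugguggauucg
miR-409-3p: aAUGUUGCucggugaacccc
miR-136-3p: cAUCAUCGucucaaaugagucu
miR-134-5p: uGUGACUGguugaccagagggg
miR-329-3p: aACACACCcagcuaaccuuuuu
miR-667-3p: uGACACCUgccacccagcccaa

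The next sequences are those of the members called different between the libraries, with the other arm of miR-337, followed by miR-379-5p, which missed the call by its ratio alone and was chosen for display after its value was seen. In GRCr8, miR-494-3p lies at chr6:134550163-134550185, miR-337-3p at chr6:134321201-134321223, miR-337-5p at chr6:134321170-134321190 and miR-379-5p at chr6:134543460-134543480, all on the plus strand. No row of the table held the other arm of miR-494-3p.
miR-494-3p: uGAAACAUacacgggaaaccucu
miR-337-3p: uUCAGCUCcuauaugaugccuuu
miR-337-5p: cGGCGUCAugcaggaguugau
miR-379-5p: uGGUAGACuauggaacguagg

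The 6 seeds of the most abundant members and the 4 seeds above all differed from each other. Only the seed of miR-329-3p was found in a further row of the table with a rat sequence, that of miR-362-3p, which is no member. Members that do share a seed, or nearly so, are shown for their sequence and were chosen after their values were seen. The rows miR-299a-5p and miR-299b-5p come from opposite strands of 1 place, share a run of 19 bases and have 1 seed. The rows miR-376b-5p and miR-376c-5p also have 1 seed, and over 21 bases they differ only by G19U, counted from the 5′ end with the base of the first-named miRNA first. The pair miR-300-3p and miR-381-3p differs over 18 bases only by G4A, which lies in the seed. In the same way, miR-379-5p and miR-411-5p differ at 7 of 21 bases, of which 1, G2A, is in the seed.
miR-299a-5p: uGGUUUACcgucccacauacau
miR-299b-5p: cGGUUUACcgucccacauac
miR-376b-5p: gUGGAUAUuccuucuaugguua
miR-376c-5p: gUGGAUAUuccuucuauguuu
miR-300-3p: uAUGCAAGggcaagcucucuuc
miR-381-3p: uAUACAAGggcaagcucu
miR-411-5p: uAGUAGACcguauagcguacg

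The miRNA reads totalled 102608 for NC-Exo and 133155 for HC-Exo. Levels are given as reads per 1000000 miRNA reads (RPM), and 1 read stood for 9.75 RPM in NC-Exo and 7.51 RPM in HC-Exo. The muscle miRNA miR-1a-3p was at 161917 RPM in NC-Exo and 174766 RPM in HC-Exo, and all 5 cardiomyocyte markers had reads. Markers of other cells were present too. The 5 fibroblast or mesenchymal markers summed to 38252 RPM in NC-Exo and 39067 RPM in HC-Exo, the 2 endothelial ones to 91114 and 66817 RPM, the 6 of 7 blood markers with a row to 7904 and 8554 RPM, and the liver miRNA miR-122-5p to 136.4 and 120 RPM. In such libraries, more vesicles from 1 cell type and more copies per vesicle cannot be told apart.

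Members of the cluster were read in both libraries, at low to moderate levels. Together the 70 rows held 1204 reads in NC-Exo against 1727 in HC-Exo. As a share of the miRNA reads this was 1.17% in NC-Exo (1.11 to 1.24%, Clopper-Pearson, 95%) and 1.30% in HC-Exo (1.24 to 1.36%). The summed level was 1.11-fold higher in HC-Exo (95% interval from the exact binomial share 1.03 to 1.19), a log2 ratio of 0.14. All intervals given here cover counting error only. PCR copies of 1 molecule are counted as separate reads, and the spread between cultures is not included. The ratio depended on the scaling of the libraries. With DESeq2 size factors the log2 ratio was 0.12 (0.0094 to 0.22). It was 0.075 (-0.032 to 0.18) under TMM scaling and 0.021 (-0.086 to 0.13) under upper-quartile scaling, and both of these intervals held 0. Leaving out the called rows, which was decided after their values were seen, gave a log2 ratio of 0.093 (-0.017 to 0.20).

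The levels of single members spanned a wide range. Over both libraries, 9 rows had at least 100 reads, 9 had 50 to 99, 16 had 20 to 49, 8 had 10 to 19, and 28 had under 10. Reads were found in both libraries for 52 rows, in NC-Exo alone for 7 and in HC-Exo alone for 11, and none of these 18 rows had more than 3 reads. The 6 most abundant rows of each library held 44.9% of the cluster's reads in NC-Exo against 41.2% in HC-Exo. The first of them in both libraries was miR-382-5p, with 153 reads (1491 RPM, rank 71 of all miRNAs) in NC-Exo against 171 reads (1284 RPM, rank 83) in HC-Exo. It was followed by miR-409-3p, with 96 reads (936 RPM) in NC-Exo against 165 reads (1239 RPM) in HC-Exo.

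**Figure D1:**
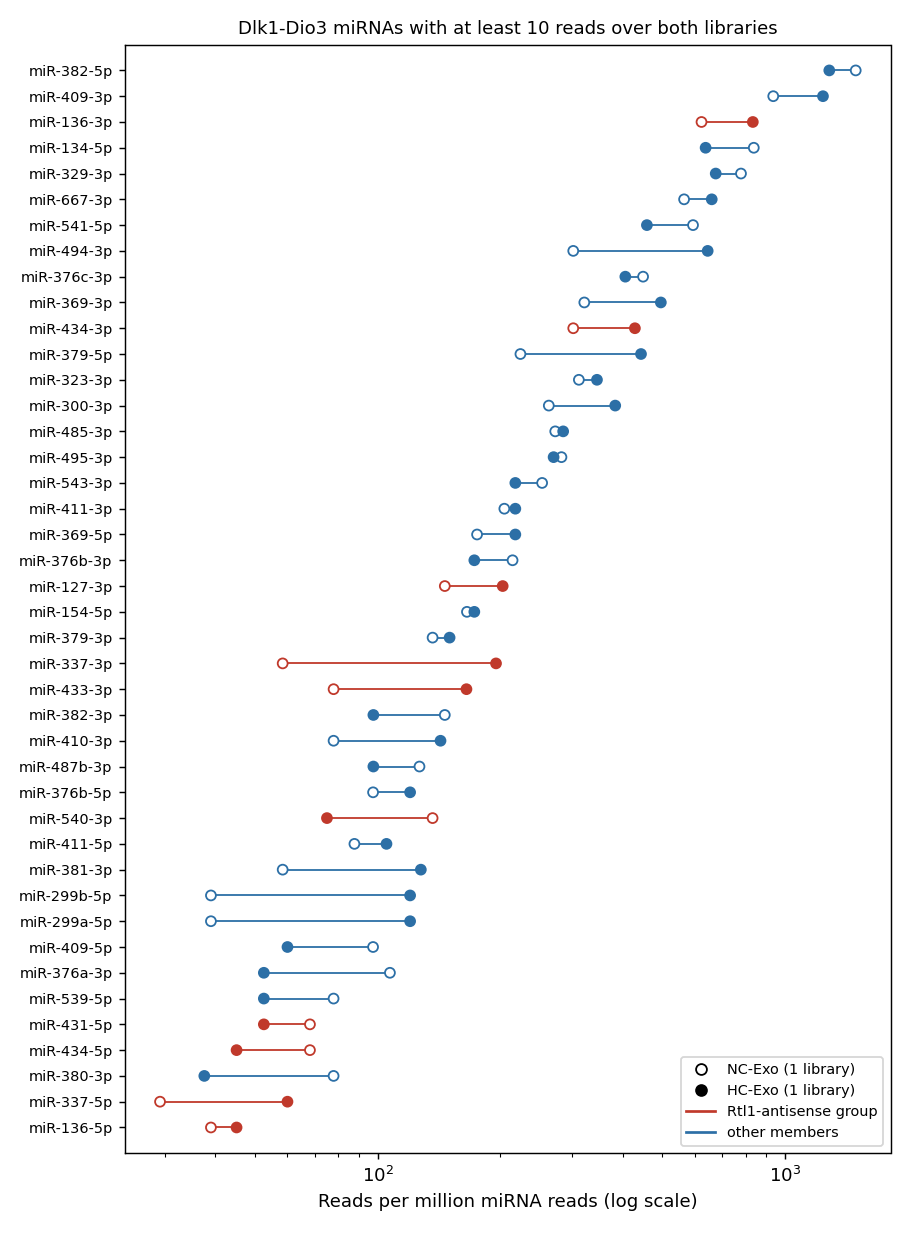
Level of each member with at least 10 reads over both libraries, in RPM on a log axis, with an open point for NC-Exo and a filled point for HC-Exo (1 library each). The lines join both libraries, red for the Rtl1-antisense group and blue for other members. miR-382-5p and miR-409-3p stand at the top in both libraries, and filled points lie to the right of open ones in 25 of 42 rows.

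A miRNA was tested when both libraries together held at least 10 of its reads. Counts of both libraries were compared by an exact binomial test, two-sided, with Benjamini-Hochberg adjustment over the 340 miRNAs of the whole table that could be tested. A member counted as called when its level differed by a log2 ratio of 1 or more in either direction and its adjusted p-value was below 0.05. Such a test speaks of these 2 libraries, not of the conditions. For ratios, counts below 3 were raised to 3.

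Of the 70 rows, 42 were tested, and 2 were called, both higher in HC-Exo. Over the whole table, 2.65% of the tested miRNAs were called higher and 2.06% lower, and no member was called lower. The 2 calls among 42 rows are thus near the background of the table and do not set the cluster apart. Without the limit on the ratio, 3 members had an adjusted p-value under 0.05, all higher in HC-Exo, beside a background of 13.8% higher and 8.53% lower. At an unadjusted p-value under 0.05 there were 7 members, 16.7% of those tested, and 32.4% of all tested miRNAs. The tested members had a median of 41 reads over both libraries against 65 for all tested miRNAs, and the part of read depth in this gap was not tested.

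The called members were miR-494-3p and miR-337-3p. The miR-494-3p row, whose miRNA has been studied for its part in cardiac injury, comes from the long array and had 31 reads (302 RPM) in NC-Exo against 86 reads (646 RPM) in HC-Exo. Among the 9 members with at least 100 reads it was the only one called. Its log2 ratio was 1.10 (95% interval 0.49 to 1.74, adjusted p = 0.00188, exact binomial test), and it moved from rank 152 to rank 108 among all miRNAs. The Rtl1-antisense miRNA miR-337-3p had 6 reads (58.5 RPM) in NC-Exo against 26 reads (195 RPM) in HC-Exo. Its log2 ratio was 1.74 (0.43 to 3.31, adjusted p = 0.0232, exact binomial test). Neither was called under upper-quartile scaling, where the log2 ratio of miR-494-3p was 0.97 and the adjusted p-value of miR-337-3p was 0.0559 by the exact binomial test. The exact test of edgeR called neither when a coefficient of variation of 0.1 between cultures was assumed.

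The other arm and the neighbours of these miRNAs were read alongside. For miR-337-5p, 3 reads were counted in NC-Exo against 8 in HC-Exo, which is a log2 ratio of 1.04 with a counting interval from -1.02 to 3.59. It leaned the same way as miR-337-3p but rests on 11 reads. The genes next to that of miR-494 in the rat are those of miR-329 and miR-1193. The row of miR-329-3p had 80 reads (780 RPM) in NC-Exo against 90 reads (676 RPM) in HC-Exo, which is a log2 ratio of -0.21 (-0.66 to 0.25). The intervals of miR-329-3p and miR-494-3p did not overlap, but miR-494-3p was set beside its neighbours because it had been called. The row of miR-1193-3p had 3 reads in each library, too few for a ratio.

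Just below the call stood miR-379-5p, the first miRNA of the long array. It had 23 reads (224 RPM) in NC-Exo against 59 reads (443 RPM) in HC-Exo. Its log2 ratio of 0.98 (0.27 to 1.75) was under the limit of 1, while its adjusted p-value passed the threshold (adjusted p = 0.0270, exact binomial test). The other arm, miR-379-3p, had 14 reads in NC-Exo against 20 in HC-Exo, which is a log2 ratio of 0.14 (-0.92 to 1.24). The sum of both arms was 37 and 79 reads, a log2 ratio of 0.72 (0.14 to 1.32). The related miR-411-5p, which lies next along the array, had 9 reads in NC-Exo against 14 in HC-Exo, which is a log2 ratio of 0.26 (-1.05 to 1.65).

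In size, 7 members had a log2 ratio of at least 1, where 11.5% of all tested miRNAs did, and 2 had a log2 ratio of -1 or lower, where 4.12% did. The 5 uncalled ones of the former group had between 11 and 30 reads over both libraries. They were miR-433-3p, an Rtl1-antisense miRNA that has been studied in cardiac fibrosis, with 8 reads in NC-Exo against 22 in HC-Exo, miR-381-3p with 6 and 17, miR-337-5p, and the rows miR-299a-5p and miR-299b-5p. The last pair had identical counts of 4 reads in NC-Exo against 16 in HC-Exo, and their 3p rows both had 0 and 3 reads, and whether the same reads were counted under both names was not tested. The members with a log2 ratio of -1 or lower were miR-376a-3p, with 11 reads in NC-Exo against 7 in HC-Exo, and miR-380-3p, with 8 and 5. Each of these had an interval that held 0.

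The log2 ratios of the abundant members lay on both sides of 0. Among the 9 rows with at least 100 reads, the log2 ratio ran from -0.39 for miR-134-5p to 1.10 for miR-494-3p, and 4 of the 9 were above 0. The neuronal miRNA miR-134-5p, known for its part in dendritic spines, had 86 reads (838 RPM) in NC-Exo against 85 reads (638 RPM) in HC-Exo. Its interval of -0.84 to 0.057 left out the ratio of the summed cluster (0.14) but overlapped the interval of that ratio (0.037 to 0.25). The same was true of miR-382-5p, with a log2 ratio of -0.22 (-0.54 to 0.11). At the other end, miR-409-3p had a log2 ratio of 0.41 (0.034 to 0.78), and miR-136-3p, with 64 reads (624 RPM) in NC-Exo against 111 reads (834 RPM) in HC-Exo, one of 0.42 (-0.038 to 0.89). None of these 4 passed the exact binomial test, with adjusted p-values of 0.210 for miR-134-5p, 0.363 for miR-382-5p, 0.101 for miR-409-3p and 0.196 for miR-136-3p.

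Of the remaining abundant rows, miR-667-3p was slightly higher in HC-Exo, with 58 reads in NC-Exo against 88 in HC-Exo and a log2 ratio of 0.23 (-0.27 to 0.73). The row miR-541-5p had 61 reads in both libraries, which is 594 RPM in NC-Exo and 458 RPM in HC-Exo because the latter library is deeper. For miR-376c-3p, 46 and 54 reads gave a log2 ratio of -0.14 (-0.74 to 0.46). The intervals of all these rows held 0, and none of the rows was called. Which size of ratio could be detected at this depth was not tested.

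**Figure D2:**
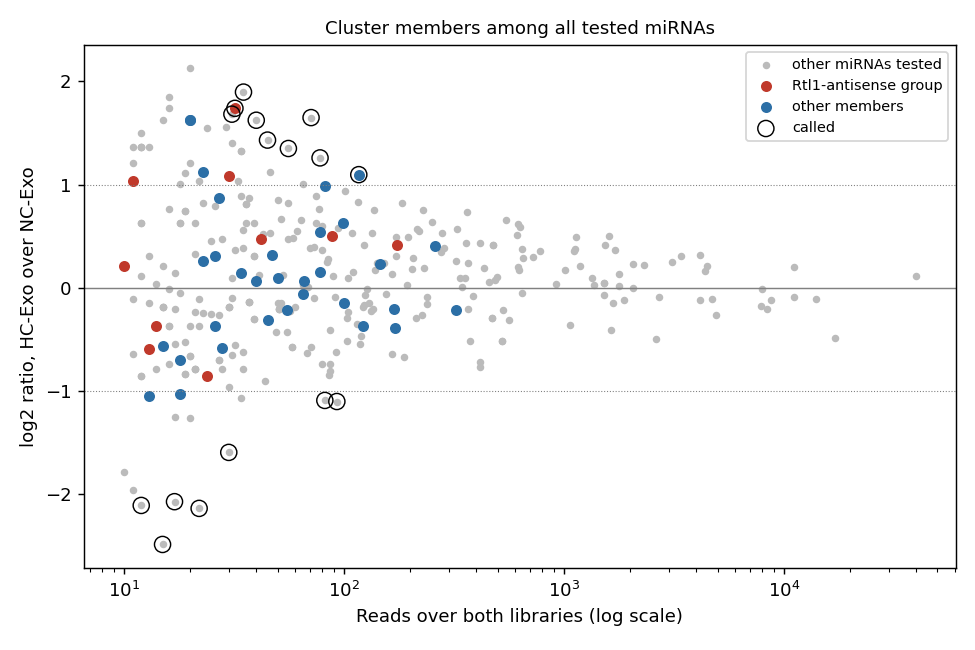
HC-Exo over NC-Exo as a log2 ratio against the reads over both libraries on a log axis, for the 340 tested miRNAs, with cluster members in red (Rtl1-antisense group) and blue (other members) and called miRNAs ringed. The ringed members are miR-337-3p and miR-494-3p, and the members lie on both sides of 0, with a median of 0.14, while the median of all 340 tested miRNAs, members included, is 0.10.

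Over the tested members, the median log2 ratio was 0.14, with quartiles of -0.36 and 0.53. For all tested miRNAs the median was 0.10, with quartiles of -0.27 and 0.53. The level was higher in HC-Exo for 25 of 42 tested members (59.5%), beside 56.2% of all tested miRNAs. The medians and quartiles of the members and of the table were thus similar. The 95% interval left out the ratio of the summed cluster in 5 of 42 members, namely miR-337-3p, miR-379-5p and miR-494-3p above it and miR-134-5p and miR-382-5p below it. That ratio was taken as fixed here, although it has its own interval of 0.037 to 0.25. The sum includes these same members, and no adjustment was made over the 42.

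A question set by the layout of the domain is whether the Rtl1-antisense group differed from the other members. The 13 rows of the group held 160 reads in NC-Exo against 282 in HC-Exo. This was 0.156% of the miRNA reads in NC-Exo (0.133 to 0.182%) and 0.212% in HC-Exo (0.188 to 0.238%), a log2 ratio of 0.44 (0.16 to 0.73). The 57 other rows held 1044 reads in NC-Exo against 1445 in HC-Exo, which was 1.02% (0.957 to 1.08%) and 1.09% (1.03 to 1.14%), a log2 ratio of 0.093 (-0.023 to 0.21). The difference of the log2 ratios was 0.35, with an exact counting interval of 0.040 to 0.66 from the odds ratio of the reads. This lower bound was close to 0 and did not hold when rows were left out. Without the most abundant row of each group (miR-136-3p and miR-382-5p) the difference was 0.32 (-0.074 to 0.71), and without the called rows 0.31 (-0.0092 to 0.63).

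**Figure D3:**
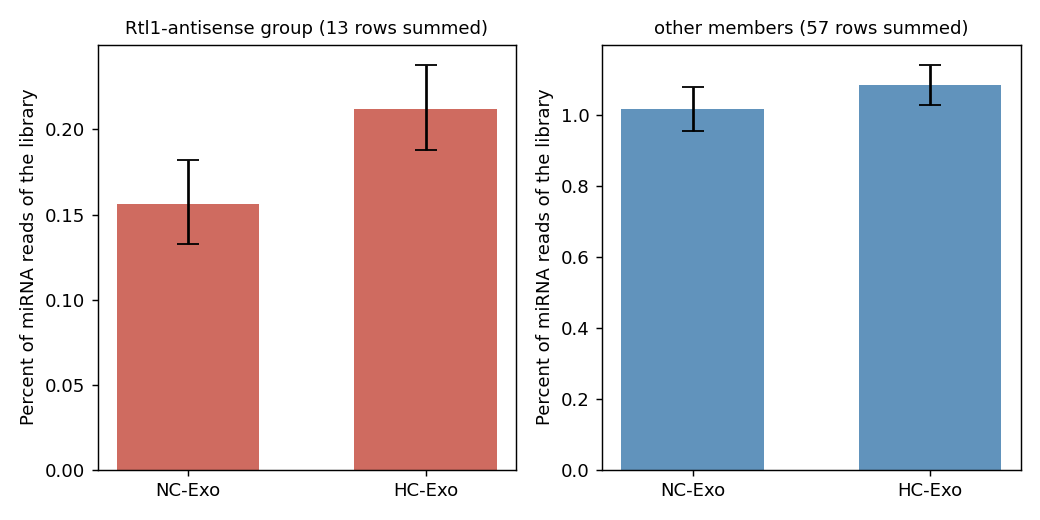
Summed reads of the Rtl1-antisense group (left) and of the other members (right) as a percent of the miRNA reads of each library, with 95% exact counting intervals as error bars and axes that start at 0. The left share was 0.156% in NC-Exo against 0.212% in HC-Exo, and the right share 1.02% and 1.09%.

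Within the Rtl1-antisense group, 10 of the 13 rows were tested, and 7 of them were higher in HC-Exo, beside 56.2% of all tested miRNAs. The median log2 ratio of these 10 rows was 0.45, that of the 32 other tested members 0.077 and that of all tested miRNAs 0.10. The most abundant rows of the group were miR-136-3p, described above, and miR-434-3p. The latter had 31 reads (302 RPM) in NC-Exo against 57 reads (428 RPM) in HC-Exo, which is a log2 ratio of 0.50 (-0.15 to 1.18). For miR-127-3p, which can direct cleavage of the Rtl1 mRNA, 15 reads (146 RPM) and 27 reads (203 RPM) gave a log2 ratio of 0.47 (-0.49 to 1.49). For miR-433-3p the log2 ratio was 1.08 (-0.14 to 2.46). These rows leaned to HC-Exo, but none of the 4 passed the exact binomial test, the lowest adjusted p-value being 0.196.

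The group was not uniform. The row miR-540-3p had 14 reads (136.4 RPM) in NC-Exo against 10 reads (75.1 RPM) in HC-Exo, which is a log2 ratio of -0.86 (-2.19 to 0.41). For miR-431-5p, a miRNA studied in muscle regeneration, 7 reads were counted in each library, and miR-434-5p had 7 in NC-Exo against 6 in HC-Exo. The row miR-136-5p had 4 and 6 reads. The 3 rows that were not tested, miR-127-5p, miR-431-3p and miR-665-3p, had 1 read each. Of the group's reads, 64 in NC-Exo against 111 in HC-Exo came from miR-136-3p alone.

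**Figure D4:**
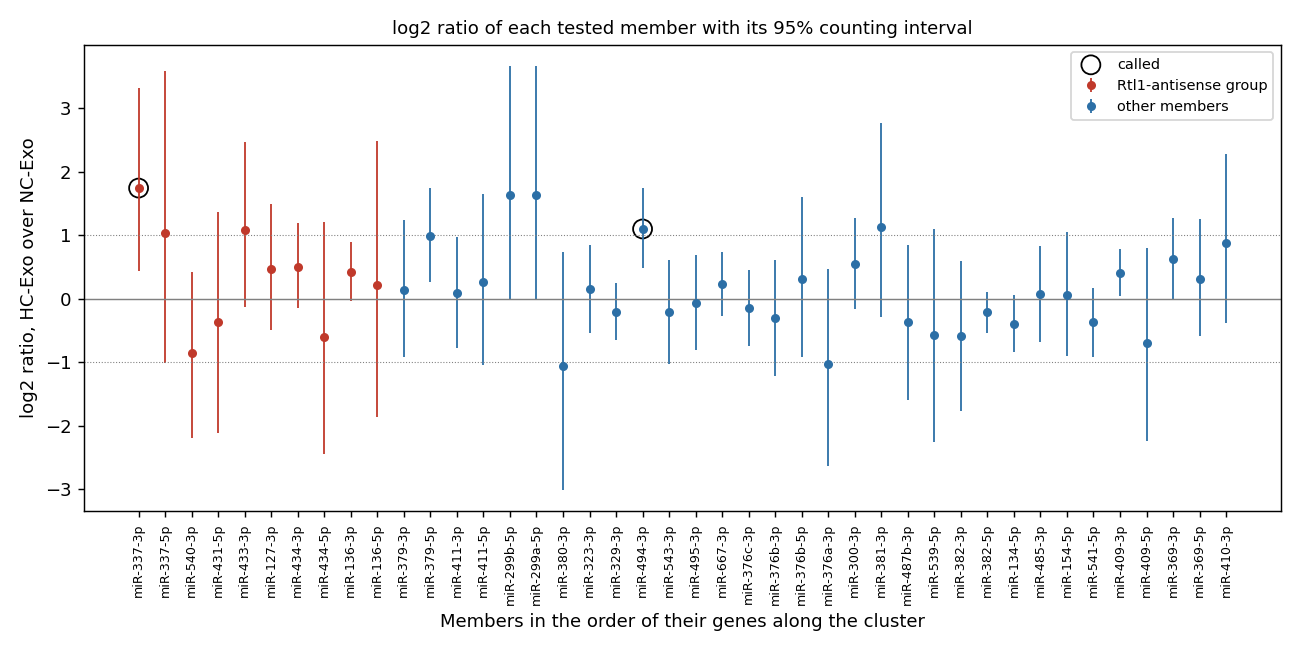
HC-Exo over NC-Exo as a log2 ratio for the tested members in the order of their genes along the cluster, with 95% counting intervals as bars, called rows ringed, a line at 0 and dotted lines at 1 and -1. Points above and below 0 occur along the whole order, and the ringed rows are miR-337-3p at the left end and miR-494-3p near the middle.

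When the reads were summed along the order of the rat genes, with limits set after the counts were seen, the stretch before Rtl1 had 24 reads in NC-Exo against 47 in HC-Exo, which is a log2 ratio of 0.59 (-0.15 to 1.37). Of these reads, 9 in NC-Exo against 34 in HC-Exo came from miR-337, whose 3p arm was called, and 14 against 10 from miR-540-3p. The stretch within Rtl1 had 137 reads in NC-Exo against 237 in HC-Exo, which is a log2 ratio of 0.41 (0.11 to 0.73). The stretch from miR-379 to miR-495 had 293 and 463 reads, a log2 ratio of 0.28 (0.070 to 0.50). Of these reads, 31 in NC-Exo against 86 in HC-Exo came from the called miR-494-3p. The identical rows miR-299a-5p and miR-299b-5p added 4 and 16 reads each. Whether the interval leaves out 0 without these rows was not tested. The next stretch, from miR-667 to miR-382, held 0.366% of the reads of NC-Exo and 0.348% of HC-Exo, a log2 ratio of -0.073 (-0.27 to 0.13), and the last, from miR-134 to miR-3072, had 373 and 514 reads, a log2 ratio of 0.087 (-0.11 to 0.28). The first part of the long array thus held miR-494-3p and miR-379-5p, and the later parts 6 of the 9 members with at least 100 reads. Across the 41 tested members with a rat sequence, the rank correlation of gene order with the log2 ratio was -0.21, and that of GC content with the log2 ratio 0.037. These are descriptions across miRNAs of the same libraries, which are not independent.

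In the array from miR-379 onwards, most tested members had a log2 ratio whose interval held 0. The row miR-369-3p was the most AU-rich of the tested members, with a GC content of 23.8%, and had 33 reads (322 RPM) in NC-Exo against 66 reads (495.7 RPM) in HC-Exo. Its log2 ratio was 0.62 (0.00021 to 1.27, adjusted p = 0.136, exact binomial test), and its other arm, miR-369-5p, had 18 and 29 reads, a log2 ratio of 0.31 (-0.59 to 1.25). For miR-300-3p, 27 and 51 reads gave a log2 ratio of 0.54 (-0.16 to 1.27). Its near relative miR-381-3p, which differs in the seed as shown, had a log2 ratio of 1.13 (-0.28 to 2.76). Both of this pair leaned to HC-Exo without passing the test.

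The miRNAs miR-410-3p and miR-495-3p have been studied as promoters of neonatal cardiomyocyte proliferation. Counts of miR-410-3p were 8 in NC-Exo against 19 in HC-Exo, which is a log2 ratio of 0.87 (-0.39 to 2.27). For miR-495-3p they were 29 and 36, a log2 ratio of -0.064 (-0.81 to 0.69). Neither passed the exact binomial test, with adjusted p-values of 0.357 and 0.958. Rows with nearly the same level in both libraries were also miR-323-3p, with 312 RPM in NC-Exo and 345 RPM in HC-Exo, miR-485-3p, with 273 and 285 RPM, and miR-154-5p, with 166 and 173 RPM. Counts of 26 and 29 for miR-543-3p and of 13 in each library for miR-487b-3p gave log2 ratios of -0.22 and -0.38. For the miR-376 family, miR-376b-3p had 22 and 23 reads, and miR-376b-5p 10 and 16.

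Of the remaining tested rows, miR-382-3p and miR-409-5p were minor arms, and miR-411-3p was the major arm of its hairpin. No row held the other arm of miR-539-5p. Of miR-382-3p there were 15 reads in NC-Exo against 13 in HC-Exo, of miR-409-5p 10 and 8, of miR-539-5p 8 and 7 and of miR-411-3p 21 and 29. All had an interval that held 0. Of the 28 rows that were not tested, 6 had at least 5 reads. The counts in NC-Exo and HC-Exo were 5 and 4 for miR-376c-5p, 4 and 5 for both miR-543-5p and miR-496a-3p, 5 and 3 for miR-485-5p, 3 and 3 for miR-1193-3p, and 2 and 3 for miR-668-3p. Together the 28 rows held 38 reads in NC-Exo against 47 in HC-Exo, which is a log2 ratio of -0.069 (-0.72 to 0.59). Among them were the members with the highest numbers, of which miR-1193-5p had 2 reads in NC-Exo alone, miR-1197-3p 1 read in HC-Exo alone, and miR-3072-3p 2 reads and 1.

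Each hairpin gives a 5p and a 3p arm, of which 1 is usually kept by the Argonaute protein. Of the cluster's hairpins, 22 had rows for both arms and at least 20 reads. The 3p arm held most of the reads in both libraries in 16 of these hairpins and the 5p arm in 6, namely miR-134, miR-154, miR-299a, miR-299b, miR-379 and miR-382. The 3p arm was the major one in 72.7% of these hairpins and in 56.2% of the 112 others of the table. Among the most one-sided was miR-329, with 98.8% of its reads on the 3p arm in NC-Exo and all 90 in HC-Exo. On the other side, the 3p arm of miR-382 held 8.93% in NC-Exo (5.08 to 14.3%) and 7.07% in HC-Exo (3.82 to 11.8%). Mixed use of both arms was seen for miR-369, with 64.7% on the 3p arm in NC-Exo against 69.5% in HC-Exo.

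**Figure D5:**
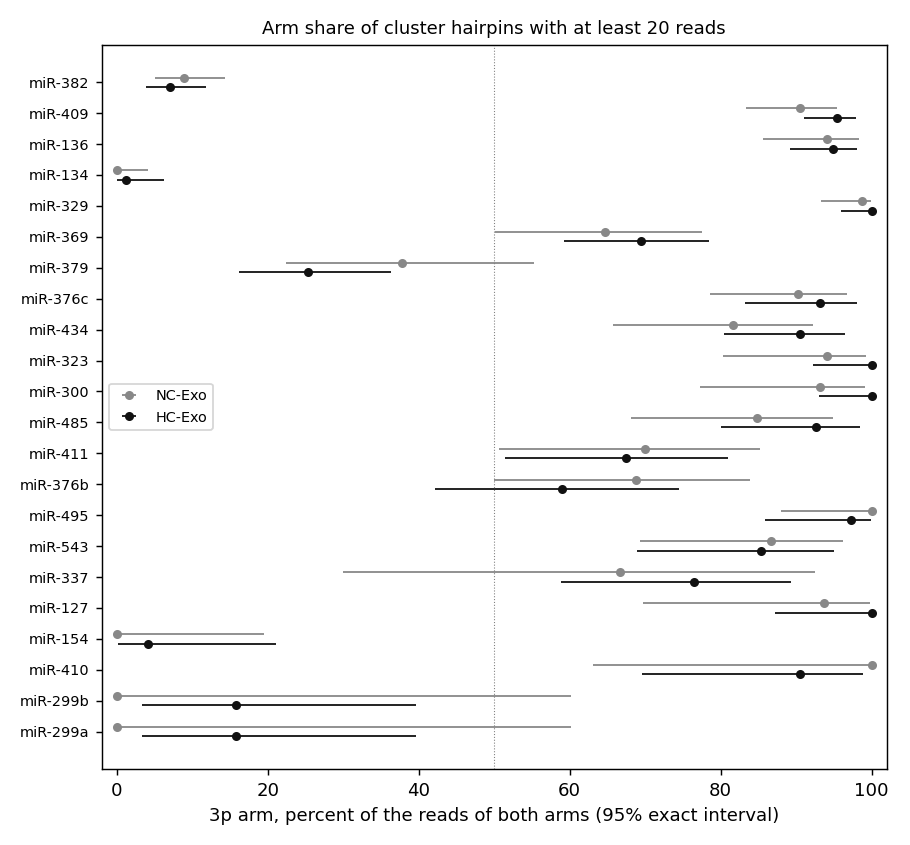
Share of the 3p arm among the reads of both arms, in percent, for the 22 cluster hairpins with at least 20 reads, with grey points for NC-Exo, black points for HC-Exo and 95% exact intervals. The grey and black intervals overlap for every hairpin shown, and miR-382, miR-134, miR-154, miR-379 and the miR-299 rows lie left of 50%.

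The arm share was compared between the libraries by Fisher's exact test, two-sided, with adjustment over all such hairpins of the whole table. No cluster hairpin passed, and none had an unadjusted p-value under 0.05, while 2.99% of all tested hairpins passed. The lowest adjusted p-value of a member was 0.452 (Fisher's exact test), and the lowest unadjusted one 0.128. For miR-379 the 3p arm held 37.8% in NC-Exo (22.5 to 55.2%) and 25.3% in HC-Exo (16.2 to 36.4%), with wide intervals at this depth. Summed over all members, the 41 rows of 3p arms had a log2 ratio of 0.26 (0.13 to 0.39) and the 29 rows of 5p arms one of -0.074 (-0.26 to 0.11). Row by row the arms were closer, with a median log2 ratio of 0.14 over the 26 tested 3p rows, of which 16 were higher in HC-Exo, and of 0.13 over the 16 tested 5p rows, of which 9 were higher. The log2 difference between the arm sums, 3p minus 5p, was 0.33, with a counting interval of 0.11 to 0.56. The 3p sum included miR-494-3p and miR-337-3p, and the 5p sum was mostly miR-382-5p, miR-134-5p and miR-541-5p. The part of these rows in the difference was not tested.

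Other miRNAs of the domain lie outside the rule. On a list of their numbers, 5 rows were found. The row miR-673-5p had 18 reads in NC-Exo against 12 in HC-Exo, which is a log2 ratio of -0.96 (-2.15 to 0.17, adjusted p = 0.238, exact binomial test). The counts of miR-770-3p were 5 and 4, and those of miR-770-5p, miR-341-3p and miR-1188-5p were at most 3 in a library. Of the 5 rows, 1 was tested and 0 passed by the exact binomial test.

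Marker miRNAs of other cells were set beside the called members. Of the 5 fibroblast or mesenchymal markers, 3 passed the adjusted threshold as higher in HC-Exo and 1, miR-214-3p, as lower, and their sum had a log2 ratio of 0.030 (-0.030 to 0.091). The sum of the cardiomyocyte markers had a log2 ratio of 0.12 (0.090 to 0.15), with 3 of 5 passing as higher and 0 as lower. For the endothelial sum it was -0.45 (-0.49 to -0.41), with 1 of 2 passing as lower. These 2 markers are the arms of miR-126a, and they leaned opposite ways. The 5p arm, with most of the endothelial reads (8875 in NC-Exo, 8185 in HC-Exo), was lower in HC-Exo, at a log2 ratio of -0.49. The 3p arm (474 in NC-Exo, 712 in HC-Exo) was higher, at 0.21, and just missed the threshold (adjusted p = 0.0572, exact binomial test). The blood sum was at 0.11 (-0.017 to 0.25). Of its 6 rows, 1 passed as higher, and miR-142a-3p, with 2 reads in each library, was not tested. The liver miRNA miR-122-5p had a log2 ratio of -0.18 (-1.31 to 0.96). Their part in the results for the cluster was not tested.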

How the data were processed

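A single small RNA library of exosomal RNA was made for each of NC-Exo and HC-Exo, with Illumina reagents and sequencing. The submitters' processing notes name Bowtie2 and the mouse builds mm9 and GRCm38, and trimming, the miRNA reference and the counting rule are not given in the sources used here. Whole-number counts under mature miRNA names, as deposited by the authors, were used. A table of scaled counts and a table with the authors' own fold changes and p-values were not used. Every row of the whole-number counts that were used has 1 or more reads in total.

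RPM were computed with library totals of 102608 and 133155 reads, so a floor of 3 reads is 29.2 RPM in NC-Exo and 22.5 RPM in HC-Exo. The exact binomial test, Fisher's exact test and the Clopper-Pearson intervals were computed in scipy 1.17.1 (Python 3.11.15). Both tests, but not the intervals, were tried on simulated data. In R 4.3.3, edgeR 4.0.16 gave TMM and upper-quartile factors and its exact test at an assumed variation of 0.1 or 0.2, and DESeq2 1.42.0 gave size factors. Other alternatives were the filter, 0.5 reads added to counts, the thresholds, and rows counted once or left out. Student's t-test, which the study names, needs replicates.

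The members, the lists (cell markers, other miRNAs of the domain) and the tests were chosen with earlier results of these data known. Members with at least 10 reads, their other arms, and rows just under that filter were named, and sequences were printed for the most abundant and the called rows. Sequences and gene order are from RefSeq (GRCr8).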

Additional observations from a re-analysis of the deposited data

How the results depend on the processing

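No paired analysis was possible because each condition has a single library, which also means that no replicate could be left out. The titles of both libraries carry the same number, and the labels do not say what it stands for. DESeq2 gave size factors only, as its test needs replicates. TMM scaling, size factors, no filter on reads and 0.5 added reads each kept the counts of 2 members called higher and 0 lower. Upper-quartile scaling, which shifts every log2 ratio by -0.12, gave 0 called higher, with log2 ratios of 0.97 for miR-494-3p and 1.62 for miR-337-3p. A filter of 10 reads in each library gave 1 called higher, since miR-337-3p is then not tested. The exact test of edgeR gave 0 called higher and 0 lower, whether the assumed coefficient of variation was 0.1 or 0.2. At an unadjusted p-value below 0.05, still with the limit on the ratio, it gave 2 higher and 0 lower in each case. The limit on the ratio alone, with no test, gave 7 higher and 2 lower. Under upper-quartile scaling the log2 ratio of the summed cluster moved from 0.14 to 0.021, and that of the other members from 0.093 to -0.031. Signs turned through the shift for the uncalled miR-154-5p (-0.0091 under TMM, -0.063 under upper-quartile scaling), miR-485-3p (-0.0046 and -0.059) and miR-411-3p (-0.034 under upper-quartile scaling). The difference between the Rtl1-antisense group and the other members does not depend on the scaling, and with identical rows counted once it was 0.36 (0.053 to 0.67). The 95% interval left out 0 in 5 of 42 tested members and in 34.2% of the tested miRNAs outside the cluster, and the part of read depth in this was not tested.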
